A study of Mus musculus with 9 samples.

Results

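The genes described here are those that encode collagen α chains, as transcribed in C2C12, a mouse myoblast cell line. They were chosen as the protein-coding genes whose name has the form Col, a type number, a and a chain number, with at least 10 counts in 3 or more of the 9 libraries. Of 44 such genes among the 54697 lines of the count table, 28 met the rule, and all 28 passed the filter on low counts and were tested. They comprise 11 fibrillar chains (Col1a1, Col1a2, Col2a1, Col3a1, Col5a1, Col5a2, Col5a3, Col11a1, Col11a2, Col24a1, Col27a1), 4 collagen IV chains (Col4a1, Col4a2, Col4a5, Col4a6), 4 beaded filament or related chains (Col6a1, Col6a2, Col6a3, Col28a1), 3 short-chain network collagens (Col8a1, Col8a2, Col10a1), 3 fibril-associated collagens (Col12a1, Col14a1, Col16a1), and Col7a1, Col17a1 and Col18a1.

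RNA-seq was done on control cells, on cells given 750 µM butyrate and on cells given 750 µM pentanoate, both for 48 h, with 3 libraries in each group. All cells were wild type and were grown in DMEM with fetal bovine serum. The labels do not say what was added to the control cells. The labels do not tie the 3 libraries of a group to separate cultures. The p-values therefore rest on a spread between libraries that may be technical. A single cell line was used, so the fibroblasts that make much of the matrix in muscle tissue are no part of the samples.

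Collagens are secreted matrix proteins in which α chains wind around each other into a triple helix. Fibrillar collagens carry tension, collagen IV forms the mesh of basement membranes, and collagen VI forms beaded microfibrils around cells. In skeletal muscle the chains of collagen VI surround every fibre and belong to the niche of the muscle stem cell, and their mutation in humans causes Bethlem myopathy and Ullrich muscular dystrophy. Butyrate and pentanoate are short-chain fatty acids that gut bacteria make, and the carbon chain of pentanoate is longer by a single carbon.

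Totals ran from 15829262 to 19305981 counts per library. The sum of 7 myoblast markers, none of them at 0, lay between 955 and 1574 CPM (counts scaled to a common library size) in control libraries, between 1127 and 1435 under butyrate and between 1272 and 1617 under pentanoate. The 955 was the sum of control library 3, and every butyrate sum lay below those of controls 1 and 2. Most of the sum was Des, at 952, 947 and 566 CPM in control libraries 1 to 3 and 954, 969 and 756 with butyrate. Msc had at most 1 count in a library. Single markers moved in opposite directions under butyrate. Myod1 stood at 85.7, 96.7 and 70.6 CPM in control and 55.0, 46.6 and 34.8 with butyrate. Myf5 stood at 27.1, 25.0 and 37.4 in control and 42.5, 43.4 and 47.1 with butyrate. Control library 3 stood apart. Mitochondrially encoded genes took 3.95% of its counts and 1.79% to 2.32% in the other 8 libraries. Its levels relative to control libraries 1 and 2 were lower for genes of higher GC content, with Spearman's rho of −0.65 over 12062 genes, which are not independent replicates, and of −0.61 over the 28 collagen genes. Their median GC content was 56.4%, against 50.2% over all genes. For some collagen genes the change is also given without control 3. The changes of the other listed genes and the chain ratios are given only with it.

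The collagen genes took 2.22%, 2.04% and 2.24% of all counts in control libraries 1 to 3. They took 1.90%, 1.67% and 2.01% with butyrate and 2.16%, 2.05% and 2.54% with pentanoate. The group means were 2.16% ± 0.113, 1.86% ± 0.172 and 2.25% ± 0.254 (SD, n = 3 each), and every butyrate library lay below every control and every pentanoate library. Uncorrected for gene length, fibrillar chains made up 63.4% of the collagen counts, beaded filament chains 19.0%, fibril-associated chains 7.63%, collagen IV 6.51%, Col18a1 2.15% and the short-chain network collagens 1.20%.

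Per kilobase of the deposited gene length, Col1a1, the α1 chain of collagen I, was the most abundant, with a mean of 604 RPKM (CPM divided by the gene length in kilobases) over the 9 libraries. Col3a1 and Col1a2 followed at 288 and 284 RPKM, and their ranges over the libraries overlapped. Next came Col6a3 at 221, Col6a1 at 205 and Col5a2 at 165. At the other end stood Col2a1, the chain of cartilage collagen, at 0.0471 RPKM. It met the rule with 13, 13 and 17 counts in treated libraries and had at most 5 in any control library, so it passed through the groups where it was higher.

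**Figure D1:**
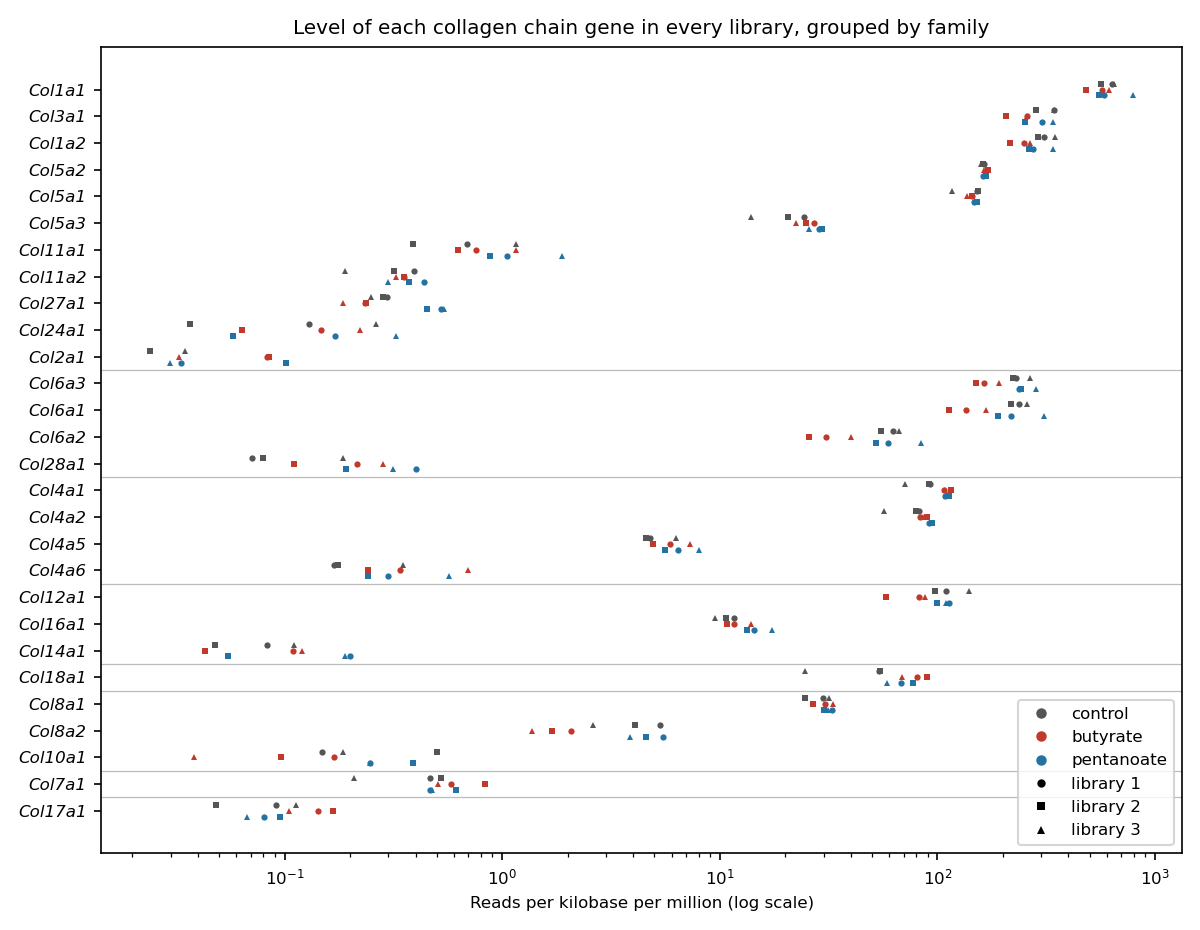
RPKM on a log axis for each of the 28 collagen chain genes, grouped by family, with color for the group and marker shape for the library number. Control library 1 had no count of Col2a1 and is not drawn for it. Levels span from 604 RPKM on average for Col1a1 to 0.0471 for Col2a1, and within a gene the groups lie close together on this scale.

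The 16 genes that missed the rule included Col23a1 with 48 counts in all libraries together, Col6a4 with 45 and Col4a4 with 31. The next were Col15a1 with 28, Col9a3 with 21, Col20a1 with 17, Col4a3 with 13, Col9a2 with 13 and Col25a1 with 10. Col26a1 had 7, Col6a5 6, Col22a1 4 and Col19a1 3 counts, and Col9a1, Col13a1 and Col6a6 had none, which for each library allows up to 3 counts. Just inside the rule stood Col2a1, with at least 10 counts in 3 libraries, and Col10a1, with as many in 4, and just outside it Col23a1, whose highest library had 11 counts, and Col6a4, whose highest had 9.

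Cells given butyrate held less RNA of all 3 collagen VI chains that met the rule, of Col8a2 and of Col12a1 than control cells, and more of Col4a1. Of the 28 genes, 5 fell and 1 rose against control at an adjusted p under 0.05 in edgeR's quasi-likelihood test with Benjamini-Hochberg adjustment over the 14066 genes tested. Over all genes, 4.95% fell and 6.43% rose, 11.4% in either direction. The collagen shares were 17.9% and 3.57%. The median log2 change of the collagen genes was 0.13, with 18 above 0 and 10 below, against −0.024 over all genes. With the replicate number as a block, 7 fell and 4 rose, against 20.7% of all genes called in either direction, 9.95% lower and 10.8% higher. DESeq2 called 6 lower and 2 higher, and 14.5% of all genes, 6.5% lower and 8.05% higher. In bulk libraries, fewer cells of a type and less RNA per cell cannot be told apart.

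Pentanoate gave no call among the collagen genes against control (edgeR), where 0.803% of all genes were called, 0.782% higher and 0.0213% lower. At an unadjusted p under 0.05 there were 7, all higher, with 13.7% of all genes under it, 7.78% higher and 5.95% lower. DESeq2 called 3, namely Col4a1, Col16a1 and Col27a1, also all higher, and 2.58% of all genes, 2.21% higher and 0.37% lower. The block called 6, all higher, against 3.65% of all genes, 3.01% higher and 0.647% lower. The median log2 change was 0.32, with 24 genes above 0, against −0.0084 over all genes. Pentanoate against butyrate gave 5 higher and none lower, with 3.42% of all genes called, 1.81% higher and 1.61% lower. The 5 were the 3 collagen VI chains, Col8a2 and Col27a1. The median was 0.24 against 0.0032 over all genes, and the block called 9, all higher, with 10.5% of all genes called in either direction, 6.12% higher and 4.42% lower. The same control libraries enter both comparisons with control, and the same butyrate libraries enter butyrate against control and pentanoate against butyrate, so the comparisons are not independent.

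**Figure D2:**
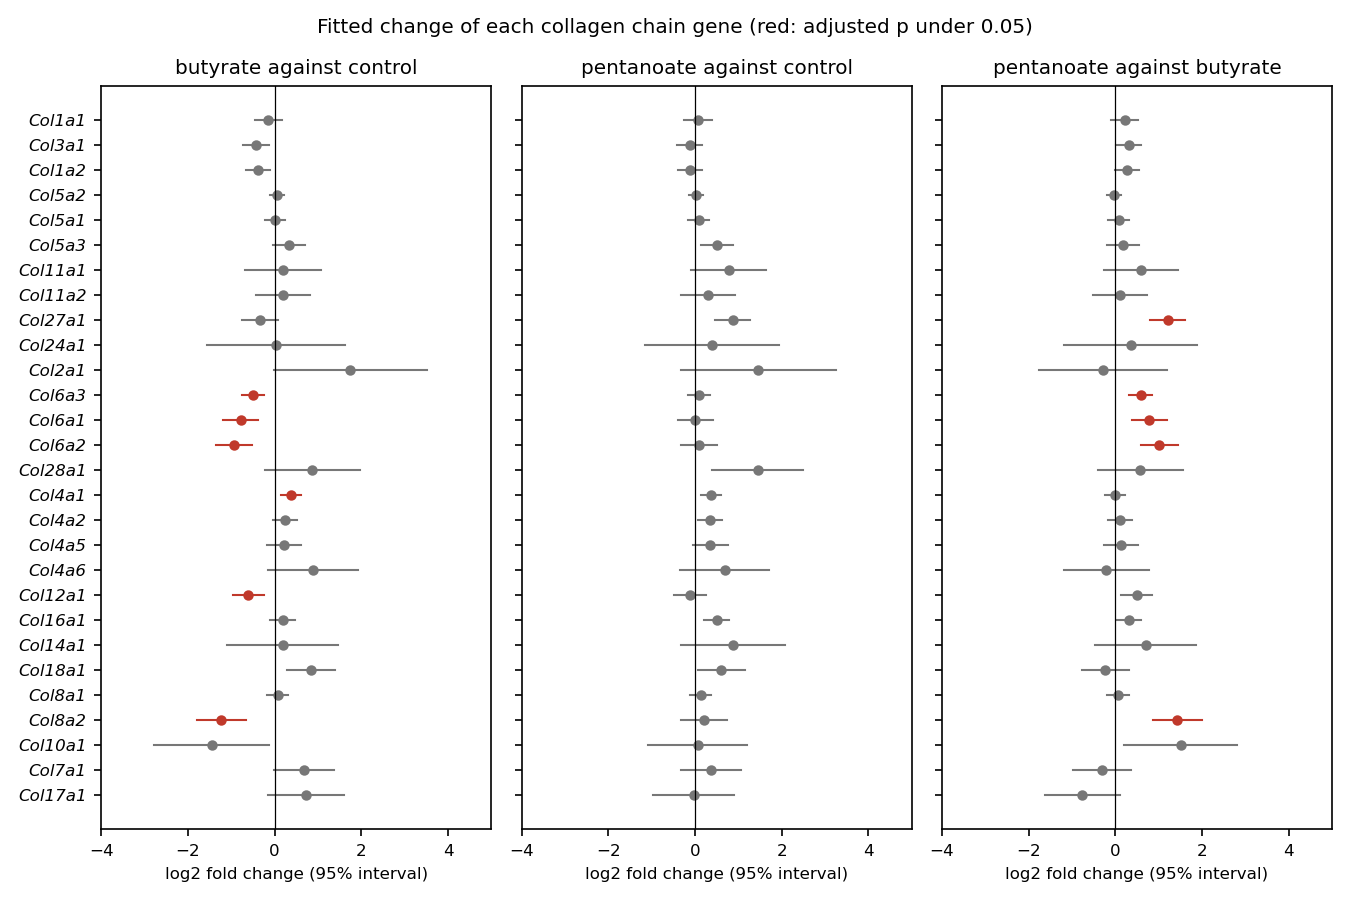
Fitted log2 fold change of each collagen gene (point) with its 95% interval (line) in the 3 comparisons, ordered by family, with red for an adjusted p under 0.05. Red points stand at Col6a1, Col6a2, Col6a3, Col8a2, Col12a1 and Col4a1 for butyrate against control, nowhere for pentanoate against control, and at Col6a1, Col6a2, Col6a3, Col8a2 and Col27a1 for pentanoate against butyrate.

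Collagen VI is assembled from the α1, α2 and α3 chains encoded by Col6a1, Col6a2 and Col6a3. Col6a1 (ENSMUSG00000001119, chromosome 10, 76708792 to 76726168 in GRCm38) stood at 1033, 958 and 1129.8 CPM in control libraries 1 to 3, 595, 496 and 731 with butyrate and 958, 834 and 1357 with pentanoate. All 3 butyrate libraries lay below the other 6, and the control and pentanoate libraries overlapped. It fell by 0.78 on the log2 scale with butyrate (SE 0.18, 95% interval −1.18 to −0.37, adjusted p = 0.0207 by edgeR). In percent, it fell by 41.6%. It was higher with pentanoate than with butyrate by 0.79 (SE 0.18, adjusted p = 0.0441). Against control, the pentanoate difference was 0.01 (95% interval −0.39 to 0.41).

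Col6a2 (ENSMUSG00000020241, chromosome 10, 76595762 to 76623630), the α2 chain, which lies 85161 bases from Col6a1 on the same strand, stood at 518, 460.4 and 555 CPM in control, 257, 214 and 333 with butyrate and 495, 434 and 699 with pentanoate. Its order of groups was that of Col6a1, with butyrate apart from the rest and no gap between control and pentanoate. With butyrate it fell by 47.6%, a log2 change of −0.93 (SE 0.19, 95% interval −1.35 to −0.51, adjusted p = 0.0108 by edgeR). Pentanoate exceeded butyrate by 1.02 (SE 0.19, adjusted p = 0.0189).

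Col6a3 (ENSMUSG00000048126, chromosome 1, 90765923 to 90843971), the long α3 chain, stood at 2747, 2648 and 3177 CPM in control, 1962, 1804 and 2295 with butyrate and 2834, 2897 and 3396 with pentanoate. Here too the butyrate libraries were the 3 lowest. With butyrate it fell by 29.3%, a log2 change of −0.50 (SE 0.12, adjusted p = 0.0216 by edgeR), and pentanoate exceeded butyrate by 0.59 (SE 0.12, adjusted p = 0.0250). Summed over the 3 chains, control libraries held 4297, 4066 and 4861 CPM, butyrate libraries 2814, 2514 and 3359, and pentanoate libraries 4288, 4165 and 5452.

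Single libraries decided some of these calls. With butyrate library 2 left out, all 6 collagen calls against control were lost, with an adjusted p of 0.0527 for Col6a2, 0.0960 for Col6a1 and 0.105 for Col6a3. Col6a2 kept its call when any other single library was left out. Col6a1 also lost it without control 1, control 3 or butyrate 1, and Col6a3 without control 1 or butyrate 1. Without control 3, the log2 change of Col6a1 was −0.70, with an adjusted p of 0.0628 (range over its alternatives 0.000358 to 0.0960). All 3 kept their direction in every omission, at −1.11 to −0.79 for Col6a2, −0.92 to −0.64 for Col6a1 and −0.59 to −0.41 for Col6a3. Of all 28 genes, 2 were called without control 1, 2 without butyrate 1 and 3 without butyrate 3.

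Between the acids, no collagen gene was called without pentanoate 1. Leaving out butyrate 2 or butyrate 3 left 1 call each, and leaving out butyrate 1 or pentanoate 3 left 2 each. Col6a1 kept its call in 7 of 16 alternatives (adjusted p 0.000943 to 0.204) and also lost it without control 1, under upper-quartile scaling, under library totals and with a filter at a mean of 5 CPM. Col6a3 lost its call when any butyrate or pentanoate library was left out (highest adjusted p 0.142), and Col6a2 without butyrate 1 or 2 or pentanoate 1 or 3 (highest adjusted p 0.103). The block called all 3 collagen VI chains in both comparisons.

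Markers of myofibroblasts and smooth muscle (Acta2, Cnn1, Tagln, Myh11, Postn) had a lower sum with butyrate, as collagen VI had. Of the 5, none was at 0 in all libraries. Their sum ranged from 3458 to 3994 CPM over control libraries, from 1536 to 1824 over butyrate libraries and from 3033 to 3471 over pentanoate libraries. Nearly all of it was Acta2, at 3365 to 3905 CPM in control and 1487 to 1771 with butyrate. Cnn1 and Tagln also lay lower with butyrate than in control, whereas Postn overlapped between these groups. Myh11 had at most 3 counts in a library. Markers of differentiated muscle (6 genes, none at 0 throughout) summed to 17.6 to 30.7, 3.79 to 5.58 and 16.9 to 24.2 CPM, and fibroblast markers (6 genes, none at 0 throughout) to 170 to 264, 258 to 357 and 273 to 376. Most of the fibroblast sum was Ly6a, which rose by 0.77 with butyrate (adjusted p = 0.0325 by edgeR), whereas Pdgfra gave 0.09 (95% interval −0.32 to 0.49) and Pi16 −1.42 (adjusted p = 0.0682), and Thy1 and Dpt had at most 12 counts in a library.

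Lists of 6 markers for other cell types had sums below those of the fibroblast markers in each group, but not all below differentiated muscle. Sums for the osteoblast list were 110 to 113, 84.2 to 90.5 and 91.6 to 109 CPM (control, butyrate, pentanoate). Most of this was Runx2, and Ibsp was at 0 throughout. Of its 3 tested genes, 1 was called lower with butyrate (edgeR). The adipocyte list, with Lep at 0 throughout, gave 6.11 to 12.3, 8.46 to 12.8 and 7.60 to 9.65. Of its 2 tested genes, 1 was called higher with butyrate. Epithelial markers summed to 13.9 to 40.9 CPM over control libraries, 14.8 to 26.8 over butyrate libraries and 26.95 to 65.2 over pentanoate libraries, nearly all of it Krt14, with Epcam at 0 throughout. Neuronal and glial markers summed to 2.98 to 4.19, 5.58 to 8.16 and 3.98 to 5.52, mostly Tubb3, which rose by 0.94 with butyrate (adjusted p = 0.0160 by edgeR), with Rbfox3, Snap25 and Sox10 at 0 throughout. Blood cell markers summed to 1.04 to 1.90, 5.40 to 6.16 and 1.76 to 1.93, with Adgre1 at 0 throughout. In that list Hba-a1, a haemoglobin chain, rose by 3.03 with butyrate (adjusted p = 0.00232 by edgeR) and Cd68 gave 1.07 (adjusted p = 0.0539). Endothelial markers, with Kdr at 0 throughout, summed to 0.116 to 0.454, 0.940 to 1.93 and 0.496 to 0.552. The part of these marker genes in the collagen results was not tested.

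**Figure D3:**
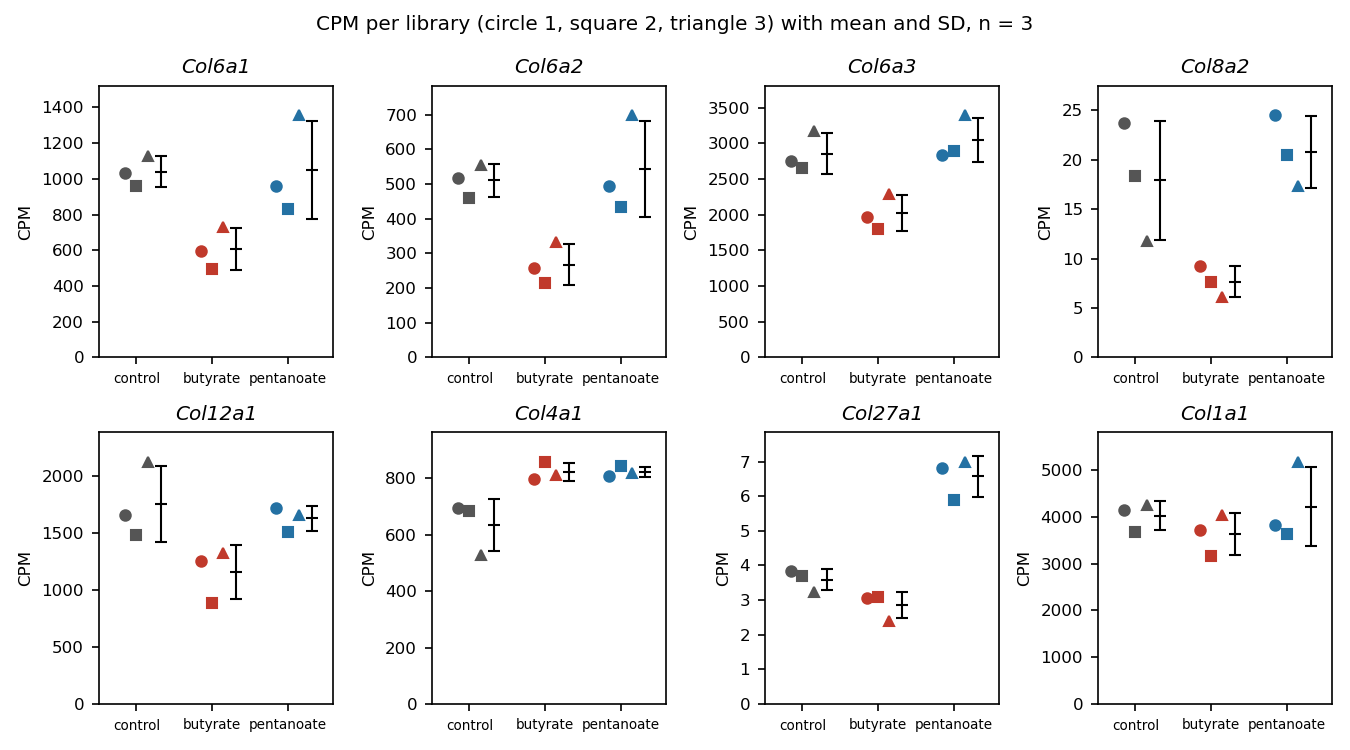
CPM of the 7 collagen genes called in any comparison, and of Col1a1, in each library (circle, square and triangle for libraries 1, 2 and 3), with mean and SD over 3 libraries in black and axes from 0. For the 3 collagen VI genes and Col8a2 the butyrate libraries are the 3 lowest, for Col4a1 the control libraries are the 3 lowest, and for Col1a1 the groups overlap.

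The sequences before the start sites of these chains are shown because the 3 genes moved together. Each window runs from 250 bases before to 50 bases after a RefSeq start in GRCm38.p6, on the gene's strand, 5′ to 3′. A window was found for 23 of the 28 genes, 25 windows in all. Capitals mark GGGCGG or its complement CCGCCC (the GC box), with overlapping matches counted separately. Col6a2 has 2 windows in the table, of which that of the downstream start is shown, and the other holds 1 GC box.
Col6a1, chr10:76725995-76726294, minus strand: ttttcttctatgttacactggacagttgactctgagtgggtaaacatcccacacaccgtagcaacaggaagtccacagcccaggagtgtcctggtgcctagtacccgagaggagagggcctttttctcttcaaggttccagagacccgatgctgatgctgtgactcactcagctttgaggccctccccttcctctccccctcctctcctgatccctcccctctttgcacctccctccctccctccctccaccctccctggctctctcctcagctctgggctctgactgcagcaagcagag
Col6a2, chr10:76623355-76623654, minus strand: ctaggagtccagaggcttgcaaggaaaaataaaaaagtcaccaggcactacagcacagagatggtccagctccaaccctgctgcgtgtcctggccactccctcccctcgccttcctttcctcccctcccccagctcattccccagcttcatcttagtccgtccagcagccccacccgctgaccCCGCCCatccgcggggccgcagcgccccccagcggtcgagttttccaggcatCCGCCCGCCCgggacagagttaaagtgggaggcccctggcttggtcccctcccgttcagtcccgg
Col6a3, chr1:90843922-90844221, minus strand: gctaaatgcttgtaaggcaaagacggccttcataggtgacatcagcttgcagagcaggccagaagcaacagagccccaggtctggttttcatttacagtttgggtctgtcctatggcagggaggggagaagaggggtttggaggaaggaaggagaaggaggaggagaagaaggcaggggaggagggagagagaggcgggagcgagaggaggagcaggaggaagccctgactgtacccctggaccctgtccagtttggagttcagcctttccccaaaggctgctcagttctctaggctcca
The window shown for Col6a2 holds 3 GC boxes, and these letters are not in the windows of Col6a1 and Col6a3. None of the 3 windows holds TATAAA or CCAAT on either strand. Over the collagen windows, 17 of 25 (68.0%) hold a GC box, against 35.7% of all 32851 windows in the table, 10 (40.0%) hold CCAAT or ATTGG against 37.4%, and 4 (16.0%) hold TATAAA or TTTATA against 13.6%. The collagen windows belong to genes that met the count rule, whereas the full set was not limited in this way, so the shares are of unlike sets. A match of letters is a description of the window.

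Col8a2 encodes the α2 chain of collagen VIII, a short-chain collagen of hexagonal networks such as Descemet's membrane of the cornea. Col8a2 (ENSMUSG00000056174, chromosome 4, 126286793 to 126314330) stood at 23.8, 18.3 and 11.7 CPM in control, 9.28, 7.61 and 6.14 with butyrate and 24.5, 20.5 and 17.3 with pentanoate. The butyrate libraries were the 3 lowest, and control 3 was the lowest of the others. With butyrate it fell by 57.2%, a log2 change of −1.22 (SE 0.25, 95% interval −1.78 to −0.67, adjusted p = 0.0110 by edgeR), and of −1.44 without control 3. Pentanoate exceeded butyrate by 1.43 (SE 0.25, adjusted p = 0.0146). The call against control was lost without butyrate 2 or 3, and that between the acids also without pentanoate 1, with a highest adjusted p of 0.0593 and 0.0860.
Its window holds 4 GC boxes, marked in capitals as above.
Col8a2, chr4:126286544-126286843, plus strand: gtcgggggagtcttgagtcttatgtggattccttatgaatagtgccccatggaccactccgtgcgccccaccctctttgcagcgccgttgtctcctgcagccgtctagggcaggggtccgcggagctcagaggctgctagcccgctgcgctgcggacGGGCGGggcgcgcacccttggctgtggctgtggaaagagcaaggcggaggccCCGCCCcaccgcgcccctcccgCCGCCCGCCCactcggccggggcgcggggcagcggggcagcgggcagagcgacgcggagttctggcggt

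Its partner chain Col8a1, the more abundant of the pair at 30.1 RPKM, was not called in any comparison. It averaged 225 ± 28.8 CPM in control and 236 ± 25.3 with butyrate (SD, n = 3 each), a log2 difference of 0.07 (95% interval −0.18 to 0.32). Col10a1, the collagen X chain of hypertrophic cartilage, stood below 1 CPM on average in every group, at a log2 difference of −1.45 with butyrate (95% interval −2.77 to −0.12, adjusted p = 0.155 by edgeR), and it overlaps Nt5dc1 on the opposite strand, with 337 counts on average.

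Col12a1 encodes the fibril-associated collagen XII, found on collagen I fibrils in tendon and muscle. Col12a1 (ENSMUSG00000032332, chromosome 9, 79598991 to 79718831) stood at 1661, 1484 and 2128 CPM in control, 1253, 887 and 1329 with butyrate and 1717, 1509.5 and 1661 with pentanoate. The butyrate libraries were the 3 lowest and control 3 was the highest. With butyrate it fell by 34.2%, a log2 change of −0.60 (SE 0.16, adjusted p = 0.0391 by edgeR), and of −0.43, with an adjusted p of 0.0849, without control 3. The call held in 5 of 16 alternatives (adjusted p 0.00241 to 0.131), the fewest of the 6, and was lost when any library other than control 2 was left out. Between the acids the difference was 0.49 (adjusted p = 0.142, and 0.0109 with the block, range 0.0109 to 0.427). Of the other fibril-associated chains, Col16a1 averaged 71.5 ± 6.98 CPM in control, 81.5 ± 10.7 with butyrate and 101 ± 13.8 with pentanoate, and every pentanoate library lay above every control library. Its pentanoate difference from control was 0.50 (SE 0.13, adjusted p = 0.121 by edgeR, 0.0499 with the block, range 0.0202 to 0.447). Col14a1 averaged 0.106 RPKM, and its intervals spanned 0 in all 3 comparisons.

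Among the fibrillar chains, which hold most of the collagen counts, 0 of 11 were called against control for either acid (edgeR), and at an unadjusted p under 0.05 there were 2 for butyrate, both lower, and 2 for pentanoate, both higher, where 26% and 13.7% of all genes lay under it, 13.5% lower for butyrate and 7.78% higher for pentanoate. DESeq2 called Col3a1 for butyrate and Col27a1 for pentanoate. Col1a1 (ENSMUSG00000001506, chromosome 11, 94936224 to 94953042) stood at 4144, 3684 and 4261 CPM in control, 3732, 3160.1 and 4037 with butyrate and 3836, 3643 and 5187 with pentanoate, and all 3 groups overlapped. Its butyrate difference was −0.15 (95% interval −0.46 to 0.17, adjusted p = 0.571 by edgeR). Col1a2 (ENSMUSG00000029661, chromosome 6, 4504814 to 4541544), the α2 chain of the same trimer, stood at 3822, 3609.9 and 4327 CPM in control, 3093, 2678 and 3309 with butyrate and 3411, 3272 and 4235 with pentanoate. Every butyrate library lay below every control library. The difference was −0.37 (SE 0.12, adjusted p = 0.0835 by edgeR). With the block the adjusted p was 0.00355 (range 0.00355 to 0.287).

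Col3a1 (ENSMUSG00000026043, chromosome 1, 45311538 to 45349706), which forms collagen III of extensible tissues, stood at 3378, 2796 and 3371 CPM in control, 2542, 2033 and 2527 with butyrate and 2982, 2491 and 3319 with pentanoate. The butyrate libraries lay below all controls and overlapped the pentanoate range. Its butyrate difference was −0.43 (SE 0.13, adjusted p = 0.0655 by edgeR, 0.00148 with the block and 0.0330 by DESeq2, range 0.00148 to 0.244). Between the acids, the block also called Col1a2 (adjusted p = 0.0333, range 0.0333 to 0.727), Col3a1 (0.0156, range 0.0156 to 0.677) and Col11a1 (0.0339, range 0.0339 to 0.899), all higher with pentanoate.

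Collagen V regulates the width of collagen I fibrils, and none of its chains was called by edgeR or DESeq2. Col5a2 (ENSMUSG00000026042, chromosome 1, 45374321 to 45503282), which lies 24614 bases from Col3a1, stood at 1574, 1560.5 and 1518 CPM in control, 1618, 1632 and 1569 with butyrate and 1551, 1597 and 1596 with pentanoate. The butyrate difference was 0.05 (95% interval −0.11 to 0.21) and the pentanoate difference 0.03 (95% interval −0.13 to 0.19). Col5a1 gave 0.01 (95% interval −0.23 to 0.25) and 0.09 (95% interval −0.15 to 0.33), and control 3 was its lowest library at 986 CPM. It overlaps opposite-strand genes with 107 counts on average. Col5a3 averaged 134 ± 36.0, 169 ± 15.6 and 190.1 ± 14.0 CPM in control, butyrate and pentanoate, and its pentanoate difference of 0.51 (adjusted p = 0.238 by edgeR, 0.0356 with the block, range 0.0356 to 0.495) was 0.32 without control 3.

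Col27a1 (ENSMUSG00000045672, chromosome 4, 63214004 to 63334991) encodes a fibrillar collagen of cartilage with short helical interruptions. It stood at 3.84, 3.69 and 3.24 CPM in control, 3.05, 3.08 and 2.41 with butyrate and 6.83, 5.90 and 7.0 with pentanoate. The 3 groups did not overlap, with pentanoate highest and butyrate lowest. Pentanoate exceeded butyrate by 1.20 (SE 0.18, 95% interval 0.80 to 1.61, adjusted p = 0.00808 by edgeR), which was the smallest adjusted p among the 28 genes in that comparison. That call was lost without butyrate 3 or pentanoate 1, with a highest adjusted p of 0.0524. Against control the pentanoate difference was 0.87 (SE 0.18, adjusted p = 0.0588, 0.0224 with the block and 0.00682 by DESeq2, range 0.00682 to 0.273). Its level was low, at 0.333 RPKM. The other fibrillar chains of low level, Col2a1, Col11a1, Col11a2 and Col24a1, were at 0.955 RPKM or below. They were not called by edgeR or DESeq2, although the block called Col11a1 higher with pentanoate than in either other group. Chondrocyte markers (6 genes, none at 0 throughout) had sums of 46.6 to 57.9 CPM in the control libraries, 48.0 to 69.4 in the butyrate libraries and 45.1 to 65.0 in the pentanoate libraries. Most of this was Sox9, at 41.4 to 53.7 CPM in control, and Acan, Hapln1 and Snorc had at most 11 counts in a library.

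All 4 collagen IV chains had fitted changes above 0 with both acids, and 1 was called, with butyrate. Of all 14066 genes, 6583 were above 0 with butyrate and 6813 with pentanoate, and 6.43% were called higher with butyrate. The intervals of Col4a5 and Col4a6 spanned 0 with both acids. Col4a1 (ENSMUSG00000031502, chromosome 8, 11198423 to 11312826), the α1 chain present in every basement membrane, stood at 693, 685 and 529 CPM in control, 799, 859 and 810.1 with butyrate and 808, 843 and 819 with pentanoate. Every treated library lay above every control library, and control 3 was the lowest. It rose by 0.37 with butyrate (SE 0.11, 95% interval 0.14 to 0.61, adjusted p = 0.0473 by edgeR), or 29.4%. With pentanoate the difference was 0.37 (SE 0.11, adjusted p = 0.167, 0.0495 with the block and 0.0443 by DESeq2, range 0.0443 to 0.447). Between the acids it was 0.00 (95% interval −0.23 to 0.24).

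In control 3, Col4a1 lay −0.38 from controls 1 and 2 on the log2 scale, and Col4a2 −0.51. Without control 3, Col4a1 stood at 0.27 for butyrate, with an adjusted p of 0.0202 (range 0.00938 to 0.169), and at 0.26 for pentanoate. Its butyrate call was lost without control 1 or any single treated library of either acid. Col4a2, the α2 chain, averaged 482 ± 92.8 CPM in control, 569.6 ± 20.4 with butyrate and 617 ± 8.55 with pentanoate, and its butyrate difference was 0.24 (95% interval −0.04 to 0.52), or 0.10 without control 3. The X-linked pair Col4a5 and Col4a6, whose gene models lie 1308 bases apart, averaged 5.98 and 0.342 RPKM. Neither was called (edgeR), and with the block Col4a6 was called for butyrate (0.85, adjusted p = 0.0160, range 0.0160 to 0.718) and Col4a5 for pentanoate (0.35, adjusted p = 0.0386, range 0.0386 to 0.744).

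Col4a1 and Col4a2 lie head to head on chromosome 8 and are known to share the region between them as a promoter. In the table their gene models overlap by 22 bases, and reads there cannot be assigned to a chain, since the use of strand in counting is unknown here. Their windows overlap by 78 bases and are shown because both chains are read from this stretch in opposite directions. Capitals mark GC boxes, and CCAAT or its complement ATTGG.
Col4a1, chr8:11312777-11313076, minus strand: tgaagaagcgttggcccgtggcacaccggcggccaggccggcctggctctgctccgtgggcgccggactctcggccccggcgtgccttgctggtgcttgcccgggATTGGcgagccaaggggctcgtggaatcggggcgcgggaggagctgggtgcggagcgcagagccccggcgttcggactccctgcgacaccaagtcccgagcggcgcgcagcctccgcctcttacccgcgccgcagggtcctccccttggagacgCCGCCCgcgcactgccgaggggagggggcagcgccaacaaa
Col4a2, chr8:11312555-11312854, plus strand: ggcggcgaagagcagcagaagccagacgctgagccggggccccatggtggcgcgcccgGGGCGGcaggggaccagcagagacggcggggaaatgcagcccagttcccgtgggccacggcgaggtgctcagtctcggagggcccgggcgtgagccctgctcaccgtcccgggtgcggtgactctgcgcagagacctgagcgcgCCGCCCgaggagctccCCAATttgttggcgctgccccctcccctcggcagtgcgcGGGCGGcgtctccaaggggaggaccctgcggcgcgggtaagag
The Col4a1 window holds 1 GC box and 1 CCAAT box, the Col4a2 window 3 and 1, and a GC box in the overlap is counted for both.

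Col18a1, the basement membrane collagen whose end is released as endostatin, is described here because its butyrate call depended on the processing. This choice was made after its values were seen. The call was absent in the main fit. It was gained without control 3, and also under upper-quartile scaling, by DESeq2 and with the block. Col18a1 stood at 379, 384 and 174 CPM in control, 565, 631 and 480.4 with butyrate and 477, 544 and 411 with pentanoate. All treated libraries lay above all controls, and control 3 was less than any other library. Its butyrate difference was 0.84 (SE 0.25, adjusted p = 0.0558 by edgeR, 0.00368 with the block and 0.00692 by DESeq2, range 0.00368 to 0.265), and 0.56 with an adjusted p of 0.0143 without control 3. For pentanoate it was 0.61 (adjusted p = 0.321), and 0.33 without control 3. Its model overlaps Slc19a1 on the opposite strand, with 425 counts on average.

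The remaining chains were near the limit of the data. Col7a1, the anchoring fibril chain of skin, averaged 0.519 RPKM, and its butyrate difference of 0.68 (95% interval −0.01 to 1.37) was called with the block (0.70, adjusted p = 0.0438, range 0.0438 to 0.529). Without control 3 the difference was 0.39, with an adjusted p of 0.298. Control 3 lay −1.20 from the other controls for it. Col17a1, a transmembrane collagen of epithelial hemidesmosomes, averaged 0.101 RPKM and Col28a1 0.206 RPKM, and neither was called by edgeR or DESeq2. Col11a1, a chain of cartilage fibrils, was called with the block for pentanoate against control (0.80, adjusted p = 0.0173, range 0.0173 to 0.766). Without control 3 and without the block that difference was 1.24, with an adjusted p of 0.247.

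Counting overlap of libraries alone, 8 collagen genes had every butyrate library below every control library, with 14.9% of all genes in that position, and 3 (Col4a1, Col4a2, Col18a1) had every one above, with 14.1%. The 8 were Col1a2, Col3a1, Col6a1, Col6a2, Col6a3, Col8a2, Col12a1 and Col27a1. For pentanoate against control, 7 lay wholly above (9.38% of all genes) and none wholly below (9.12%). For pentanoate against butyrate, 9 lay wholly above (15.7% of all genes) and only Col17a1 below (15.1%). The 9 include Col10a1, which met the rule only through its pentanoate libraries, with 15, 22 and 14 counts against 9, 5 and 2 with butyrate. Col17a1 met it only through its butyrate libraries, with 14, 16 and 10 counts against 9, 10 and 7 with pentanoate. The rule itself therefore favours the places of these genes here.

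The collagen genes also followed the library numbers. In 7 of the 28 (25.0%), namely Col1a1, Col1a2, Col6a1, Col6a2, Col4a5, Col11a1 and Col24a1, library 2 was the lowest and library 3 the highest in all 3 groups, as in 3.44% of all genes tested. Library 2 was the lowest in every group in 11 (39.3%, against 11.9% of all genes). What the numbers stand for is not given in the labels.

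The balance of chains within a trimer was measured as the log2 ratio of their counts in the same library, which no scaling of libraries changes. For 8 pairs and 3 comparisons, 24 exact two-sided permutation tests were run, and none passed, since 3 against 3 libraries cannot go below p = 0.1 and the lowest adjusted p was 0.218. The Col1a1 to Col1a2 ratio was 0.04 ± 0.0703 in control, 0.27 ± 0.0246 with butyrate and 0.21 ± 0.0756 with pentanoate (log2, SD, n = 3 each). Both treated groups lay above all controls. Per length, Col1a1 stood at 1.95 ± 0.0955, 2.28 ± 0.0387 and 2.19 ± 0.116 times Col1a2. These values depend on the deposited gene lengths, 6563 bases for Col1a1 and 12426 for Col1a2, whereas the counts themselves were near equal in control. The collagen I trimer holds 2 α1 chains for each α2 chain, and the per-length values are no measure of that balance.

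The Col6a1 to Col6a2 ratio was 1.03 ± 0.0303 in control, 1.19 ± 0.0436 with butyrate and 0.95 ± 0.00834 with pentanoate, and the 3 groups did not overlap. The Col6a3 to Col6a1 ratio was 1.46 ± 0.0411, 1.74 ± 0.108 and 1.56 ± 0.237, and within collagen VI the α2 chain had the largest fitted fall with butyrate and the α3 chain the smallest. The widest shift was in Col8a1 to Col8a2, at 3.70 ± 0.615 in control, 4.96 ± 0.390 with butyrate and 3.58 ± 0.222 with pentanoate, and butyrate lay above both other groups. Control libraries 1 to 3 had Col8a1 to Col8a2 ratios of 3.30, 3.40 and 4.41, so control 3 raised the control mean. Col4a1 to Col4a2 was 0.41 ± 0.0771, 0.53 ± 0.0163 and 0.42 ± 0.0149.

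**Figure D4:**
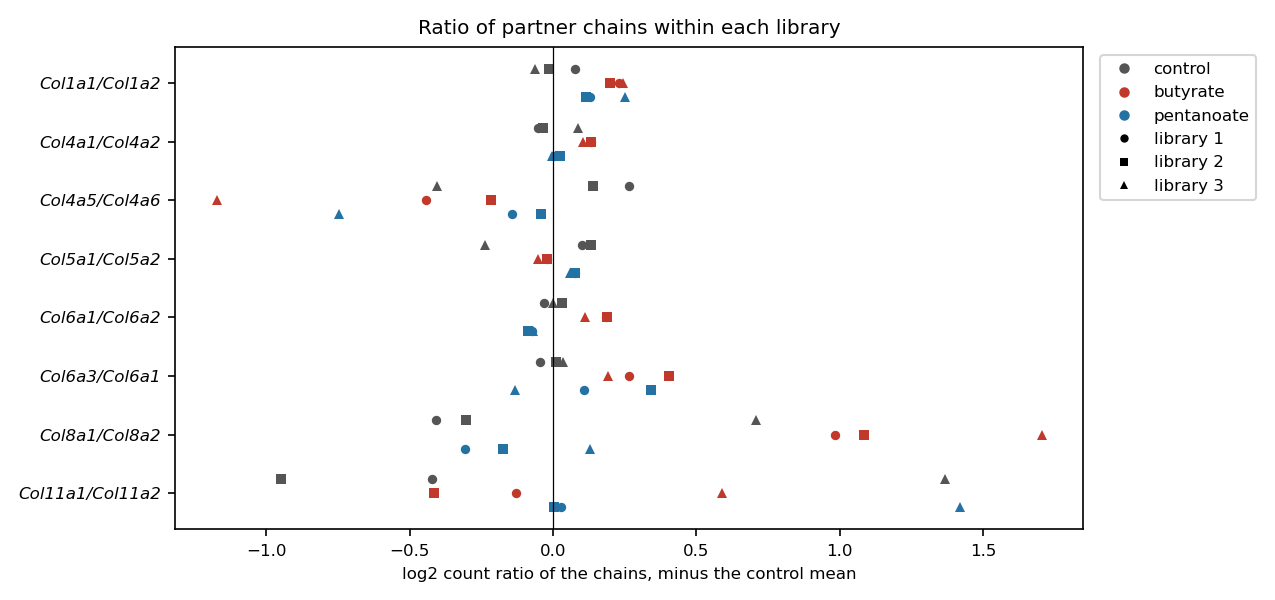
Log2 ratio of the counts of 2 partner chains in the same library, minus the mean of the 3 control libraries, for 8 pairs, with color for the group and marker shape for the library number. Butyrate lies to the right of control for Col1a1/Col1a2, Col4a1/Col4a2, Col6a1/Col6a2, Col6a3/Col6a1 and Col8a1/Col8a2, and the groups overlap for the pairs Col4a5/Col4a6 and Col11a1/Col11a2.

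Before they form fibres, collagen chains are hydroxylated, folded, exported, trimmed and crosslinked, and cells bind and degrade them through their own receptors and proteases. Of 60 genes listed for these steps, 51 were tested. With butyrate, 10 fell (19.6%, against 4.95% of all genes) and 3 rose (5.88%, against 6.43%) relative to control, with a median log2 change of −0.090. With pentanoate none was called (edgeR), where 0.803% of all genes were. At an unadjusted p under 0.05 there were 12, 7 higher and 5 lower, where 13.7% of all genes lay under it. DESeq2 called 1, and 2.58% of all genes. Between the acids 8 were higher with pentanoate (15.7%, against 1.81% of all genes) and 1 lower (1.96%, against 1.61%), with a median of 0.15. The block called 13 higher and 4 lower, where it called 6.12% of all genes higher and 4.42% lower.

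Of the 14 genes of prolyl and lysyl modification tested, 1 fell and 1 rose with butyrate (7.14% each, edgeR), near the 4.95% and 6.43% of all genes. DESeq2 also called P4hb and P4ha2, subunits of prolyl 4-hydroxylase, higher by 0.25 and 0.36 (adjusted p = 0.00167 and 0.0427, against 0.0653 and 0.0814 by edgeR). P3h1, the prolyl 3-hydroxylase of fibrillar collagens, stood at 99.6, 101 and 85.2 CPM in control, 61.8, 61.6 and 55.0 with butyrate and 82.9, 85.2 and 99.8 with pentanoate. It fell by 0.68 with butyrate (SE 0.11, adjusted p = 0.00285 by edgeR) and kept the call in all 16 alternatives. P3h2, the related enzyme that acts on collagen IV, rose by 1.17 (SE 0.30, adjusted p = 0.0291) from 1.39 ± 0.553 CPM (SD, n = 3) in control, a call lost without control 1 or any butyrate library (highest adjusted p 0.104). P4ha1, the catalytic subunit of prolyl 4-hydroxylase, gave 0.15 (95% interval −0.09 to 0.39), and Plod2, a lysyl hydroxylase, −0.25 (95% interval −0.62 to 0.11). Plod2 was highest in control 3, at 144, 113 and 175 CPM in control libraries 1 to 3 and 122, 107 and 133 with butyrate. P3h1, P3h4 and P4ha3 were higher with pentanoate than with butyrate, by 0.59, 0.42 and 0.54 (adjusted p = 0.0170, 0.0429 and 0.0426).

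Of 14 genes of folding and export, 5 fell with butyrate (35.7%, against 4.95% of all genes) and none rose (against 6.43%). Creb3l1, the transcription factor that drives collagen I synthesis in bone and fibroblasts, stood at 279, 279 and 210.2 CPM in control, 162, 163 and 142 with butyrate and 236, 228 and 236 with pentanoate. It fell by 0.72 (SE 0.12, adjusted p = 0.00327 by edgeR), in all 16 alternatives as well, and pentanoate exceeded butyrate by 0.58 (adjusted p = 0.0234). The others were the endoplasmic reticulum prolyl isomerases Fkbp14 (−0.69, lost without butyrate 2) and Fkbp7 (−0.45, lost without control 1 or butyrate 2 or 3), the coat protein Sec23a (−0.66) and the collagen-binding protein Sparc (−0.41). Sec23a kept the call in 9 and Sparc in 8 of 16 alternatives, and both lost it without control 1, pentanoate 1 or any butyrate library. Control 3 was the highest library of Sec23a, at 169 CPM against 115 and 100 in controls 1 and 2. Serpinh1, the collagen chaperone HSP47, gave −0.07 with butyrate (95% interval −0.29 to 0.15). It stood at 1263, 1274 and 1013 CPM in control libraries 1 to 3 and 1105, 1190 and 1093 with butyrate. Every butyrate library lay below controls 1 and 2 and above control 3.

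The crosslinking enzymes moved in both directions. Loxl2 rose with butyrate from 18.0, 12.7 and 16.5 to 32.2, 41.7 and 39.5 CPM in libraries 1 to 3 and stood at 21.1, 18.0 and 22.4 with pentanoate, so that butyrate lay above all other libraries. The rise was 1.27 (SE 0.16, adjusted p = 0.000747 by edgeR), and pentanoate lay 0.88 below butyrate (adjusted p = 0.0139). Loxl4 rose by 0.91 (SE 0.17, adjusted p = 0.00668). Lox, the founding enzyme of the family, fell by 0.46 (adjusted p = 0.0480), but only 4 of 16 alternatives kept that call (adjusted p 0.00516 to 0.185), and leaving out any library except control 2 ended it.

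Among the receptors, Itga11, the integrin chain that binds fibrillar collagen, showed the largest change of the 51 genes. It stood at 83.8, 53.5 and 68.6 CPM in control, 19.7, 15.1 and 21.8 with butyrate and 69.5, 48.7 and 63.6 with pentanoate. The butyrate libraries lay far below the other 6. It fell by 1.86 with butyrate (SE 0.20, adjusted p = 0.000372 by edgeR) and was higher with pentanoate than with butyrate by 1.68 (SE 0.20, adjusted p = 0.00339), both in all 16 alternatives. Itga10, a collagen-binding integrin of cartilage, fell by 1.44 from 6.96 ± 3.36 CPM in control (adjusted p = 0.0322, lost without control 1 or butyrate 2 or 3). Ddr2, a receptor kinase for fibrillar collagen, gave −0.05 (95% interval −0.46 to 0.37), a value that leans on control 3. Ddr2 stood at 171, 172 and 291 CPM in control libraries 1 to 3 and 200, 183 and 230 with butyrate. Every butyrate library lay above controls 1 and 2 and below control 3. Mmp14, the membrane-bound collagenase, stood at 1097, 929 and 786 CPM in control, 636, 511 and 571 with butyrate and 1015, 863 and 875 with pentanoate. It fell by 0.71 (SE 0.13, adjusted p = 0.00705 by edgeR), and pentanoate exceeded butyrate by 0.68 (adjusted p = 0.0214). Of the 5 propeptide processing genes tested, Adamts2, a procollagen N-proteinase, was higher with pentanoate than with butyrate by 0.49 (adjusted p = 0.0184). Of the 9 calls between the acids in these lists, that of Itga11 held whichever library was left out, and the other 8 were each lost without butyrate 2, butyrate 3 or pentanoate 1 (highest adjusted p 0.213).

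**Figure D5:**
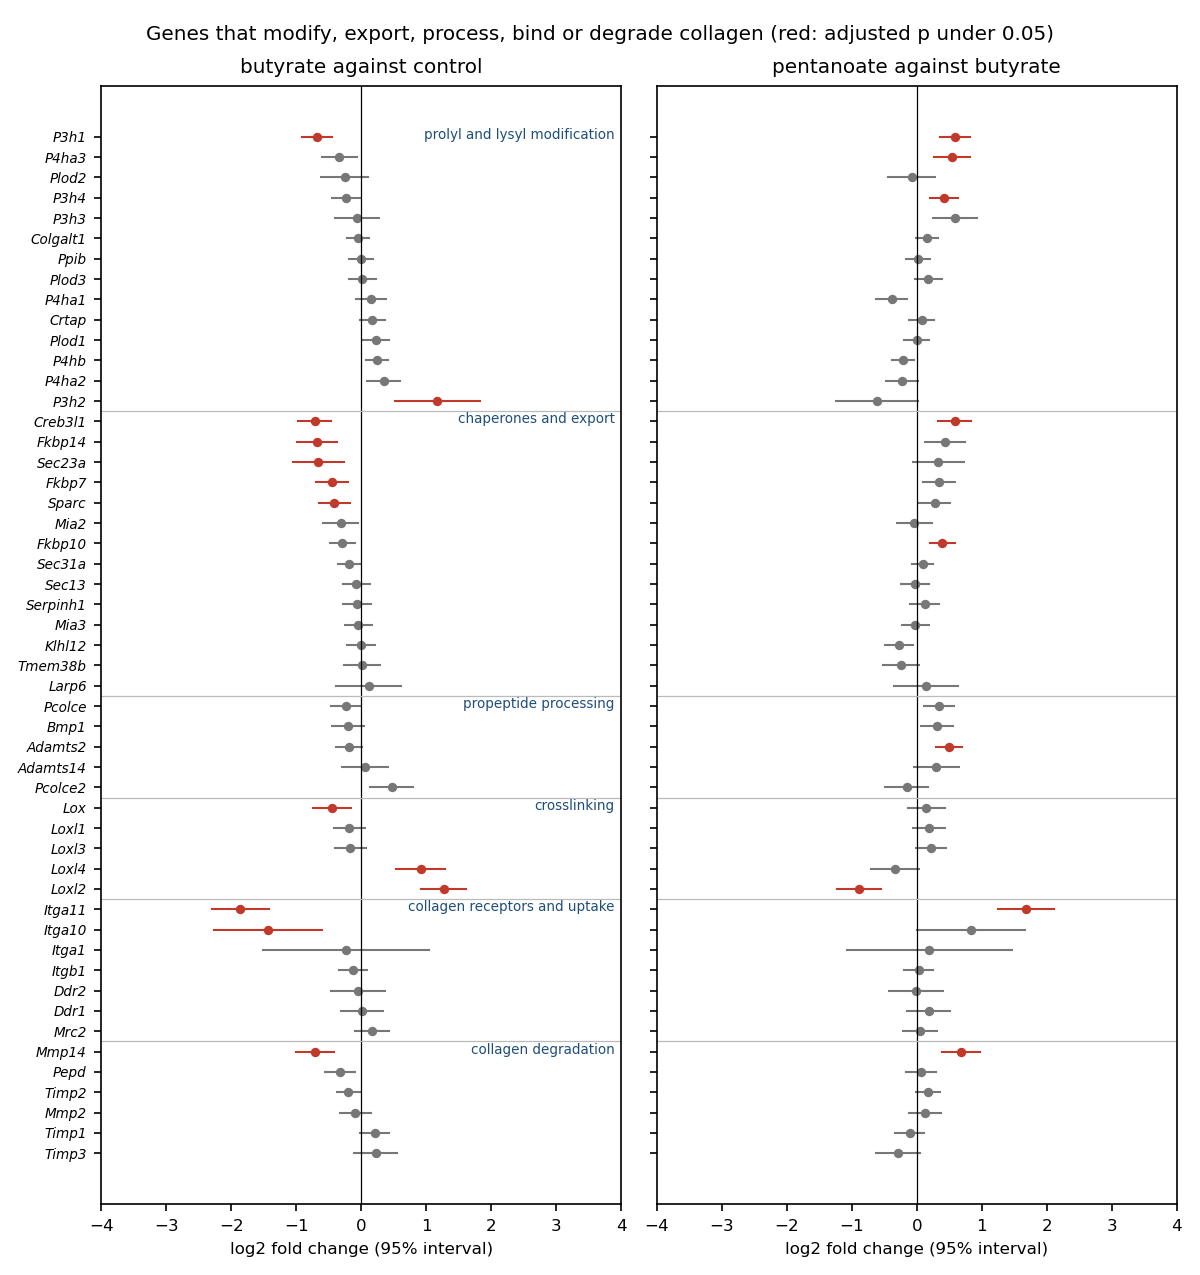
Fitted log2 fold change (point) and 95% interval (line) of the 51 tested genes that modify, export, process, crosslink, bind or degrade collagen, for butyrate against control and pentanoate against butyrate, with red for an adjusted p under 0.05. Itga11 lies farthest from 0 in both panels, at −1.86 and 1.68, and Loxl2 at 1.27 and −0.88 runs opposite to it.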

How the data were processed

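The table holds raw counts per gene as deposited by the authors, with their gene names, coordinates and gene lengths. The build was GRCm38 (mm10), per the submitters' processing notes. The aligner, the counter and its use of strand are not stated in the labels or the file header. Libraries were made from Trizol RNA with a SMARTER kit, per the labels' protocols. All 28 collagen genes have the coordinates of GENCODE M21.

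Genes were filtered by filterByExpr (14066 left), scaled by TMM and tested with edgeR 4.0.16 (R 4.3.3, quasi-likelihood test, robust) in a single fit of all 9 libraries with group as the factor, 6 residual degrees of freedom and a biological coefficient of variation of 14.4%. Genes were called at a Benjamini-Hochberg adjusted p under 0.05 over all genes tested. CPM use TMM-scaled totals, and RPKM divide them by the deposited length in kilobases. Standard errors are approximate, each being the log2 change over the square root of F. Intervals and p-values from few counts are the least certain.

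The members, gene lists and rules were chosen with earlier results of these data known. Full values are given for genes called in a comparison and for the 6 of highest RPKM; of the other lists, for called genes of smallest p, and for Serpinh1, P4ha1, Lox, Plod2 and Ddr2. Same-numbered libraries deviated together (r = 0.20 to 0.41 over genes in all 9 pairs), so the labels' numbers were taken as pairs and the fit with this number as a block stands beside the results whose call it changes. Alternatives were RLE and upper-quartile scaling, library totals, other filters, DESeq2 1.42.0, the block and the omission of each library, 16 in all. On simulated counts for butyrate against control over 13879 genes, the test recovered 77.1% to 78.0% of changes of 1 log2 unit and 80.0% to 85.7% of changes of 2. The simulated counts held no effect of library number and no shift of control 3. Changes under 1 log2 unit, as most called collagen genes had with butyrate, were not simulated. Promoter windows are from RefSeq tables of GRCm38.p6. Python 3.11.15, scipy 1.17.1 and matplotlib 3.10.9 were used.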

Additional observations from a re-analysis of the deposited data

How the results depend on the processing

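No called result changed direction under any of the 16 alternatives run. With the replicate block, collagen genes called were 11 for butyrate against control, 6 for pentanoate against control and 9 for pentanoate against butyrate, the listed pathway genes 2 for pentanoate against control and 17 between the acids, and all genes 2916, 514 and 1483. DESeq2 called 3 collagen genes, 1 pathway gene and 363 genes in all for pentanoate against control, and 951 genes between the acids. For pentanoate against control, library totals and no filter each called 1 collagen gene (Col27a1 and Col16a1), and no filter 278 genes in all. A filter at a mean of 5 CPM gave 3 collagen genes of 19 tested and 319 genes between the acids, and 1023 genes for butyrate. Leaving out a library in turn gave 0 to 7 collagen genes, 6 to 19 pathway genes and 753 to 2285 genes in all for butyrate. It gave 0 collagen genes, 0 pathway genes and 27 to 139 genes for pentanoate against control, and 0 to 5, 1 to 14 and 75 to 1469 between the acids. Upper-quartile scaling moved the share of higher calls among all genes from 56.5% to 68.8% for butyrate and from 53.0% to 41.1% between the acids. The summed collagen CPM and the partner ratios moved by less than the spread between libraries. The causes were not tested. The block lost no collagen call and changed no collagen call other than those given in the text. In each comparison 12 of 28 collagen genes had a 95% interval over 1 log2 unit wide, among them low chains such as Col2a1 and Col17a1 but also Col18a1, and the part of depth in this was not tested.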
